A study of Mus musculus with 9 samples.

Results

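The 10 genes described here are imprinted growth genes, chosen by name: Peg3, Meg3, Sgce, Cdkn1c, H19, Igf2, Dlk1, Grb10, Plagl1 and Mest. Each was read on its brightest probe set (mean of the 9 arrays) out of those annotated with its symbol alone, so that mean level chose the probe set and no difference between groups did. The genes were named with earlier results of these arrays in view, so their counts describe these genes and support nothing about imprinted genes at large. On these terms 9 of the 10 genes were measured, out of 18193 genes in all. The probe set for H19 carries a second gene symbol as well, and H19 therefore has no value here. Epithelial cells had been taken from the intestine of mouse pups at postnatal day 0 and their RNA hybridised to 9 Affymetrix arrays, 3 for each of 3 genotypes. Rescue pups carried the intestinal epithelial knockout of Tfr1 (Tfr1 IEC-KO) together with 1 ROSA26 allele of Tfr1 with the R654A change, Tfr1R654A/+. Knockout pups carried Tfr1 IEC-KO alone, and control pups were Tfr1 fl/fl, labelled wildtype. Tfr1 is the transferrin receptor, by which cells import iron. No pup was treated. The Cre line behind the deletion and the sex of the pups are not in the labels. Nor is it stated how many pups went into an array, so p-values rest on the spread between arrays, technical or not.

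An imprinted gene is transcribed mainly from the allele of one parent, because DNA methylation laid down in the egg or sperm marks the alleles differently. Many of these genes set fetal growth, and several are abundant before birth and fall silent as tissues mature. As a rule of thumb, genes expressed from the paternal allele (Igf2, Dlk1, Peg3, Mest, Plagl1 and Sgce here) tend to promote growth, and genes expressed from the maternal allele (Cdkn1c, Grb10, Meg3 and H19) tend to restrain it. They sit in clusters: Dlk1 beside Meg3, Igf2 beside H19 with Cdkn1c in the neighbouring domain, and Sgce beside Peg10. The probe sets read total transcript and do not tell the parental alleles apart.

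Methylation of imprinted genes acts at CG dinucleotides, and promoters of 4 members whose levels are turned to below are shown for that reason, with every CG in capitals. Methylation was not measured, and the capitals do not mark known sites of an imprint. They run from 250 bases before to 50 bases after a transcript start and come from RefSeq on build GRCm38.p6; where a gene has several starts, the first listed is shown. The Peg3 promoter is at chr7:6730370-6730669 on the minus strand, that of Meg3 at chr12:109540746-109541045 on the plus strand, that of Dlk1 at chr12:109452573-109452872 on the plus strand and that of Igf2 at chr7:142666767-142667066 on the minus strand.
Peg3: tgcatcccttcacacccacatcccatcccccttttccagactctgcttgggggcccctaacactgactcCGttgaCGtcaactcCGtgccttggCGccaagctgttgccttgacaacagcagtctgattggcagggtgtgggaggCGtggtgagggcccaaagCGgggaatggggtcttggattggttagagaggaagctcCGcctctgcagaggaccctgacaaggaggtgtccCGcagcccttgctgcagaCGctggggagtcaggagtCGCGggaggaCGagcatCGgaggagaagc
Meg3: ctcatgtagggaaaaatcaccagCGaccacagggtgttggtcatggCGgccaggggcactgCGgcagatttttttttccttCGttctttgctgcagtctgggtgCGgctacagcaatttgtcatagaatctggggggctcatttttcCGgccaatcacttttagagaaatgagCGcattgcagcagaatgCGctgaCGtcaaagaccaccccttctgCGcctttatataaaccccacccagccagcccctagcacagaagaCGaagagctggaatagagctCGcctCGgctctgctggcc
Dlk1: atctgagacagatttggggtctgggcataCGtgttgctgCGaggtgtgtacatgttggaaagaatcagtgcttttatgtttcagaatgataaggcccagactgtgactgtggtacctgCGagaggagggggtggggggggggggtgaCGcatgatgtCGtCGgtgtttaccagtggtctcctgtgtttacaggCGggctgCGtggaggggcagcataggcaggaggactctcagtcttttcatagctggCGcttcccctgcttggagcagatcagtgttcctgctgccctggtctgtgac
Igf2: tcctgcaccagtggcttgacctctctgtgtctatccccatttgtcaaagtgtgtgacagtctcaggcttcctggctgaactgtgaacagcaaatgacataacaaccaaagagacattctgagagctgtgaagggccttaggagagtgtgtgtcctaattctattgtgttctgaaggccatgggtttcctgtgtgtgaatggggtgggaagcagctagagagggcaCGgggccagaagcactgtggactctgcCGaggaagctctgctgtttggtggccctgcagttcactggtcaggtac
These windows hold 13 CG dinucleotides in Peg3, 13 in Meg3, 9 in Dlk1 and 2 in Igf2, against a median of 7 over the 32851 promoters of the table. The table holds 14 starts for 7 of the members, with 1 to 45 CG dinucleotides each, the highest number at the first start of Grb10. Igf2 has 3 further starts with 14, 24 and 7. The letters of 3 motifs were searched for on both strands. TATAAA, the TATA box, matched in 13.6% of all promoters and in 1 of the 14, the Meg3 window shown, where its 2 matches overlap on opposite strands. GGGGCCCC, a palindrome bound by the zinc finger protein Plagl1, matched in 1.08% of all promoters and in 1 of the 14, the Peg3 window shown. GCCATNTT, a core of sites for the factor YY1, matched in 6.05% of all promoters and in 0 of the 14. A match describes these letters and shows no binding.

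All arrays read epithelium: the 12 epithelial markers, among them Epcam, Cdh1 and Krt8, averaged 0.18 to 0.35 above the control mean in rescue arrays and 0.51 to 0.60 above it in knockout arrays, with control arrays at 11.62 to 11.70 (log2, the scale of all levels here). They did not move as 1: between knockout and control 6 were called higher and 1 lower, with log2 changes from -0.74 to 2.14. Over all genes 5.29% were called higher and 8.77% lower. Markers of the gut wall were unequal among the knockout arrays. The mean level of 20 fibroblast markers lay at 7.21 to 7.61 in rescue arrays. In knockout it was 10.07, 9.59 and 7.09 for replicates 1, 2 and 3, with control arrays at 6.46 to 7.02. Smooth muscle markers (11 genes) averaged 9.18, 8.03 and 6.02 in the same knockout replicates and 5.72 to 5.90 in control. The 9 measured markers of neurons and glia averaged 8.32, 6.97 and 6.07 there and 5.65 to 5.88 in control. Endothelial, mesothelial and leukocyte markers stood 1.32, 0.95 and 1.30 above control in knockout replicate 1, 0.71, 1.82 and 1.03 in replicate 2, and 0.27, 0.36 and 0.37 in replicate 3. Pancreas markers stood 1.37 above control in rescue replicate 3 and 2.09 above it in knockout replicate 2. Of the 20 fibroblast markers 4 were called higher in knockout and 0 lower. Knockout replicates 1 and 2 thus stood apart from replicate 3, and the levels of the members are given by array. The sex-linked transcripts Xist and Eif2s3y separated rescue from the other groups, so rescue and sex cannot be told apart. Xist read 6.67 ± 0.20 in rescue, 12.47 ± 0.39 in knockout and 12.18 ± 0.11 in control arrays (SD, n = 3 each). Y-linked Eif2s3y read 9.51 ± 0.17, 2.63 ± 0.25 and 2.78 ± 0.10 in the same order. Y-linked Uty was higher in rescue too (mean 6.44, against 4.49 in knockout and 4.64 in control). Y-linked Kdm5d hardly differed, with means of 4.48, 4.37 and 4.29. Tfrc, which encodes Tfr1, read 10.91, 10.22 and 11.11 in rescue, 10.76, 11.16 and 9.07 in knockout and 10.21, 10.78 and 9.88 in control arrays. That probe set's place relative to the deleted exons was not analysed, so its values do not check the deletion.

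In knockout epithelium the zinc finger gene Peg3, the sarcoglycan gene Sgce and the long non-coding RNA Meg3 were higher than in control, and the cell cycle inhibitor gene Cdkn1c was lower. These 4 of the 9 measured members passed limma's test (adjusted p below 0.05 over all 18193 genes), 3 higher and 1 lower. With the mean of the fibroblast markers as covariate in the fit 2 were higher and 3 lower, sharing 3 calls with the first 4. Over all 18193 genes that covariate fit called 1966, 797 higher and 1169 lower. Of these, 979 were among the 2559 genes called without the covariate. A fit with replicate 3 standing alone for knockout holds no spread between knockout arrays, so only its changes are read as results. Its calls enter only the tallies of alternatives at the end. Within groups the fibroblast mean varied mostly between knockout replicates 1 and 2 and replicate 3. The covariate fit and the fit with replicate 3 alone are therefore not separate checks. Over all genes 14.1% passed in this comparison, 5.29% higher and 8.77% lower. The arrays of the groups did not overlap for 6 members, 4 higher and 2 lower in knockout, against 32.4% of all genes, 12.7% higher and 19.7% lower. The median log2 change of the 9 members was 1.31, against -0.04 over all genes. That median was the value of Mest and its sign depended on the arrays: it was -0.22 with replicate 3 standing alone for knockout, -0.23 with the fibroblast covariate, 0.75 without knockout replicate 1 and 0.27 without probe sets ending in _x_at or _s_at. Igf2, Dlk1, Mest, Grb10 and Plagl1 did not pass.

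**Figure D1:**
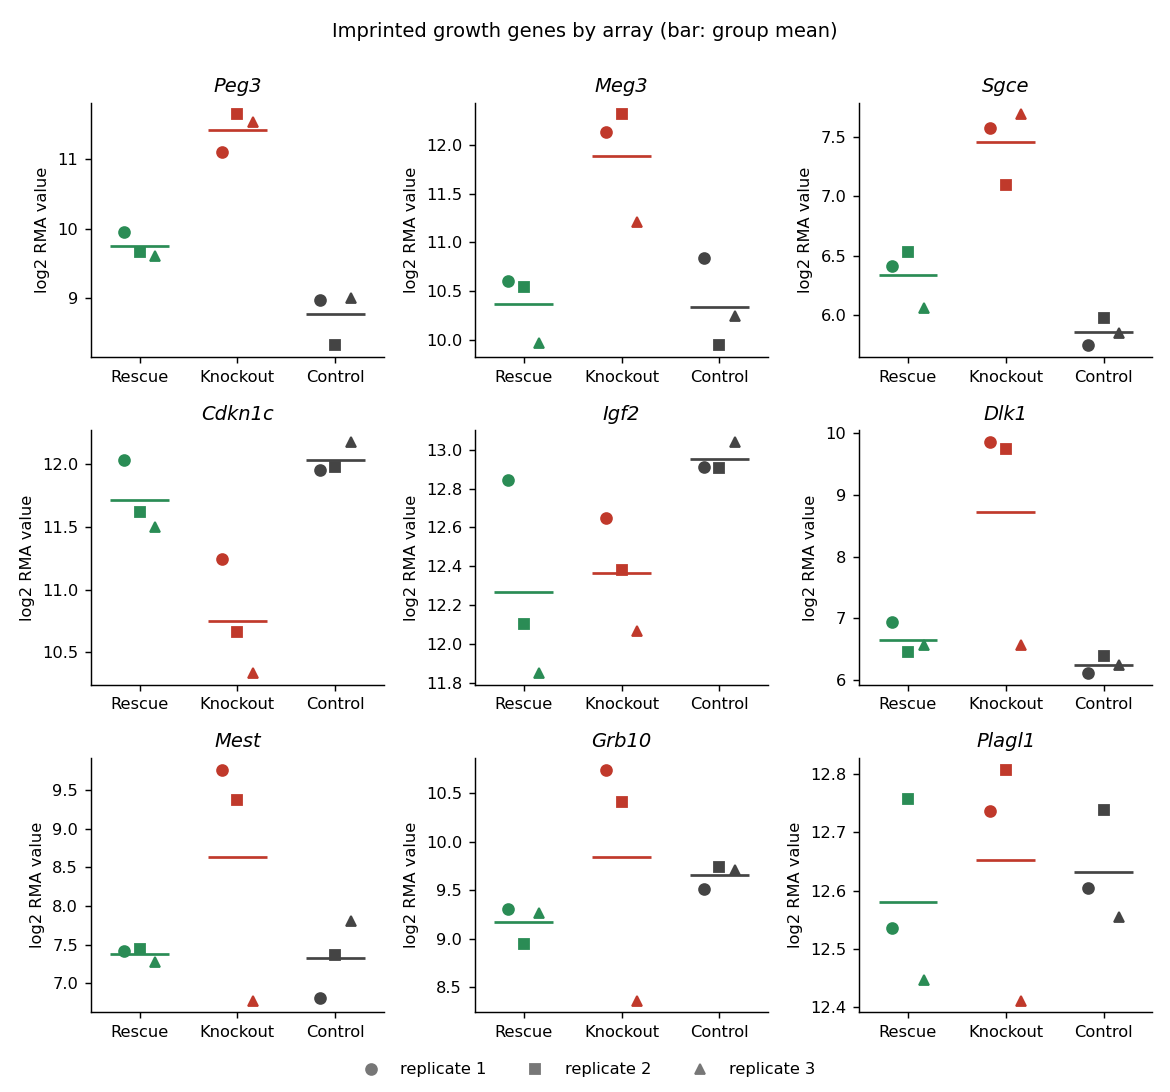
Level of each measured imprinted growth gene (log2 RMA value, vertical axes with their own range) in rescue, knockout and control arrays, with symbols for replicates and a bar at each group mean. Peg3 and Sgce are high in all 3 knockout arrays, whereas Dlk1, Mest and Grb10 are high in knockout replicates 1 and 2 alone.

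Among the transcription factors, Peg3 changed most. It encodes a zinc finger protein expressed from the paternal allele that is linked to growth, maternal behaviour and cell death. Its level was 11.10, 11.64 and 11.53 in knockout arrays and 8.98, 8.32 and 9.00 in control arrays. The groups did not overlap, and knockout replicate 3 was as high as the other knockout arrays. In that replicate the mean of the fibroblast markers was 0.31 above control. Of those 20 markers 9 were still higher in every knockout array than in every control array, against 12.7% of all genes. The rise was 2.66 ± 0.22 on the log2 scale (limma's SE, n = 3 each), 6.31-fold, with adjusted p = 4.9e-04. It was called in all 9 fits without 1 array. With replicate 3 standing alone for knockout it was 2.76, and 2.81 once the fibroblast mean entered as covariate (adjusted p = 0.0033). The gene is read by 5 probe sets. Another 2 were higher in knockout, by 2.59 and 2.15, with groups that did not overlap, while 2 dim ones, at 2.56 to 2.78 in every group mean of knockout and control, changed by -0.04 and -0.01.

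Plagl1, also called Zac1, is the other zinc finger factor of the set and a paternally expressed regulator of other imprinted genes. It read 12.74, 12.81 and 12.41 in knockout arrays and 12.60, 12.74 and 12.55 in control arrays. The groups overlapped, with a change of 0.02 ± 0.13 (adjusted p = 0.95). Its probe set ends in _x_at, which marks possible matches to other transcripts, and the other 2 changed by 0.27 and -0.0001, also with overlap.

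Cdkn1c, the maternally expressed gene of the cyclin-dependent kinase inhibitor p57, fell. It read 11.25, 10.66 and 10.34 in knockout arrays and 11.96, 11.98 and 12.18 in control arrays. No knockout array reached the control range, and the lowest value was that of replicate 3. The fall was -1.29 ± 0.23 (2.44-fold lower, adjusted p = 0.0092), called in all 9 fits without 1 array. With knockout replicate 3 alone it was -1.70, and with the fibroblast covariate -1.86 (adjusted p = 0.0041). The related inhibitor gene Cdkn1a, which encodes p21, went the other way, by 2.35 ± 0.23 (adjusted p = 9.4e-04). It read 12.26, 12.22 and 11.79 in knockout arrays against 10.02, 9.45 and 9.74 in control arrays. Of the 7 other inhibitor genes of cyclin-dependent kinases measured, Cdkn1a was the only one called, a share near the 14.1% of all genes called. In rescue it was below knockout (-1.30 ± 0.23, adjusted p = 0.030, in 4 of the 9 fits lacking 1 array), with 11.20, 10.72 and 10.45 in rescue arrays.

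Growth signals outside the cell are Igf2 and Dlk1, and neither passed. Igf2 encodes insulin-like growth factor II, a fetal growth factor made from the paternal allele. It read 12.65, 12.38 and 12.06 in knockout arrays and 12.91, 12.91 and 13.04 in control arrays. Every knockout array lay below every control array, but the change of -0.59 ± 0.25 missed the threshold (adjusted p = 0.15), as it did under each of the 18 alternatives run (adjusted p between 0.052 and 0.32). A second, dimmer probe set read 6.38, 5.85 and 6.51 in knockout arrays, against 7.20, 7.11 and 7.31 in control arrays, also without overlap.

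Dlk1, a paternally expressed membrane protein related to the ligands of Notch and known from preadipocytes, gave a split picture. It read 9.86, 9.74 and 6.57 in knockout replicates 1, 2 and 3 and 6.12, 6.39 and 6.25 in control arrays. Knockout replicates 1 and 2 lay far above control and replicate 3 just above it, as did the fibroblast markers. The change of 2.47 ± 0.75 did not pass (adjusted p = 0.062). It was 3.55 without knockout replicate 3 (adjusted p = 2.2e-05) and 0.32 with that replicate alone. With the fibroblast covariate it was 0.06 (adjusted p = 0.92). This probe set ends in _s_at, and the second, dimmer one changed by 0.09 with overlap. In RNA of a mixed cell pool, more cells of a type and more RNA per cell cannot be told apart.

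Grb10 encodes an adaptor that binds insulin and IGF receptors and dampens their signal. It read 10.74, 10.41 and 8.36 in knockout replicates 1, 2 and 3 and 9.51, 9.74 and 9.71 in control arrays. Knockout replicates 1 and 2 were above all controls and replicate 3 was below all of them, and the change was 0.19 ± 0.52 (adjusted p = 0.86). Without knockout replicate 3 it was 0.93 (adjusted p = 0.0037), and with replicate 3 alone it was -1.29, so the direction hung on the array.

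Meg3 is a long non-coding RNA made from the maternal allele of the Dlk1 cluster. It read 12.13, 12.31 and 11.21 in knockout arrays and 10.84, 9.94 and 10.24 in control arrays. The groups did not overlap, and replicate 3 was the lowest of the knockout arrays. The rise was 1.55 ± 0.33 (2.92-fold, adjusted p = 0.019). It lost its call without control replicate 2 or 3 (adjusted p = 0.076 for each), knockout replicate 1 (0.060) or knockout replicate 2 (0.057). With replicate 3 standing alone for knockout the rise was 0.87. With the fibroblast covariate it was 0.89 (adjusted p = 0.21). The probe set ends in _x_at. Of its 11 probe sets, 10 were higher in every knockout array than in every control array and all 11 had a positive mean change, from 0.47 to 2.14.

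Sgce encodes epsilon-sarcoglycan, a membrane protein of the dystrophin-associated complex expressed from the paternal allele. It read 7.57, 7.10 and 7.69 in knockout arrays and 5.75, 5.97 and 5.85 in control arrays. No arrays overlapped, and knockout replicate 3 was the highest. The rise was 1.59 ± 0.18 (3.02-fold, adjusted p = 0.0016), called in all 9 fits without 1 array. It was 1.83 with replicate 3 alone and 1.78 with the fibroblast covariate (adjusted p = 0.0072). The control level lay at the 34.6th percentile of genes, a dim range. A second, dimmer probe set was higher by 0.72, also without overlap.

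Mest, paternally expressed and coding for a protein of the alpha/beta hydrolase family, read 9.76, 9.37 and 6.78 in knockout replicates 1, 2 and 3 and 6.81, 7.36 and 7.80 in control arrays. Knockout replicate 3 lay below all controls, and the change of 1.31 ± 0.67 did not pass (adjusted p = 0.24). Without knockout replicate 3 it was 2.24 (adjusted p = 7.7e-04), and with the fibroblast covariate it was negative, at -0.86 (adjusted p = 0.043).

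**Figure D2:**
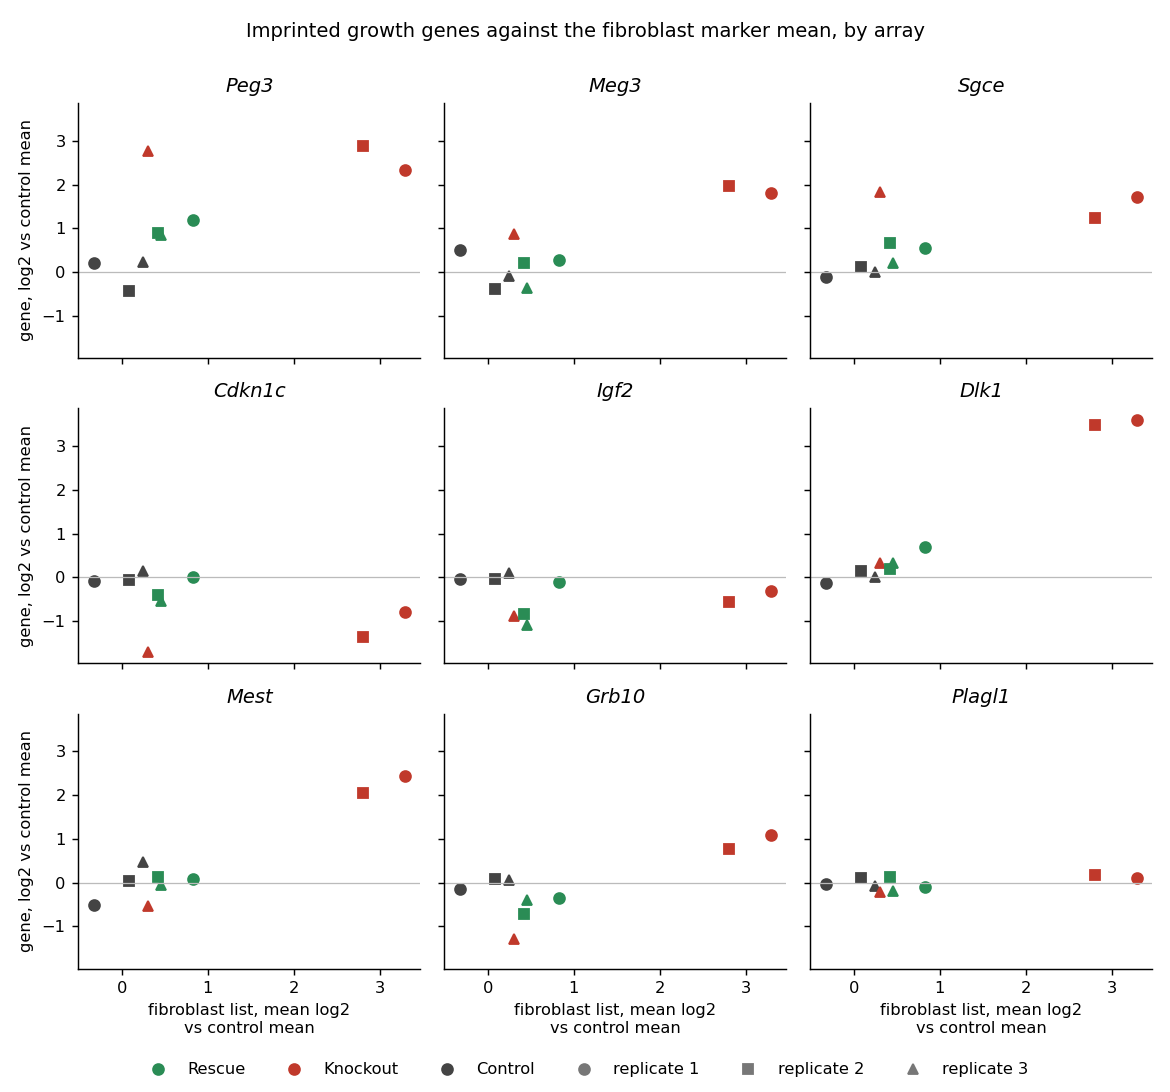
Each gene's level relative to the control mean (log2, vertical axis) against the mean of 20 fibroblast markers relative to its control mean (log2, horizontal axis), 1 point for each array. Knockout replicate 3, the red triangle, sits at 0.31 on the horizontal axis, and there Peg3 lies at 2.76 and Cdkn1c at -1.70, against 0.32 for Dlk1 and -0.55 for Mest.

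The members therefore differed in how the knockout arrays stood to each other. In replicates 1 and 2, with fibroblast means 3.29 and 2.80 above control, 6 and 7 of the 9 genes lay above the whole control range. In replicate 3, with a fibroblast mean 0.31 above control, 4 did (Peg3, Sgce, Meg3 and Dlk1) and 5 lay below it. Over all genes 31.3%, 30.6% and 37.5% lay above the control range in knockout replicates 1, 2 and 3, and 46.7%, 43.8% and 37.5% below it.

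**Figure D3:**
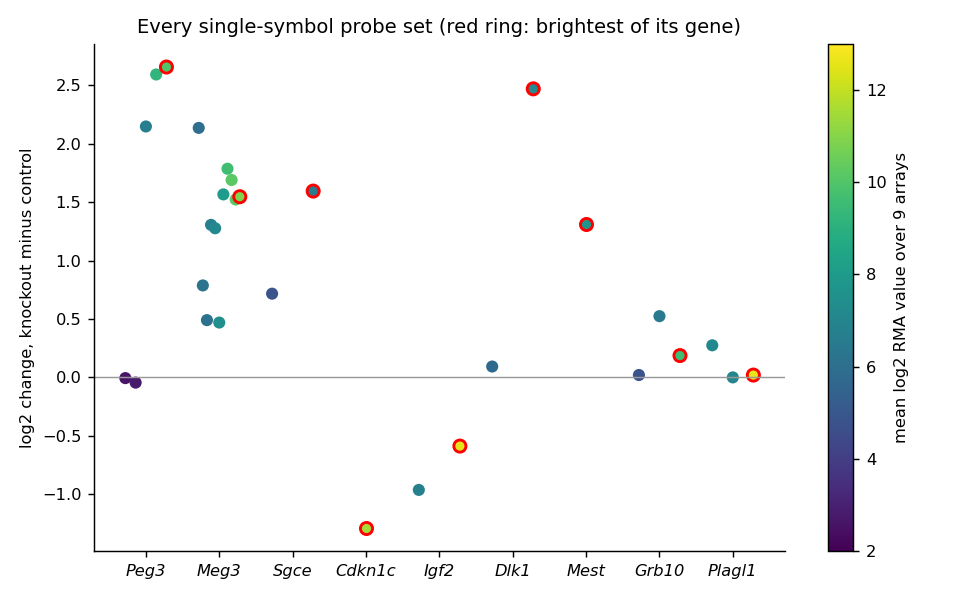
Mean log2 change between knockout and control for every single-symbol probe set of the 9 genes, coloured by mean level over the 9 arrays, with a red ring around the brightest probe set of a gene. All 11 probe sets of Meg3 lie above 0, as do 3 of the 5 of Peg3 by 2.15 or more, and both of Igf2 lie below 0.

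Setting rescue beside knockout shows these genes with and without the R654A allele on the same deletion, and also in pups that differ in sex markers. Peg3 and Sgce were lower in rescue, and no member was called higher in the fit to all arrays. That is 2 of 9 members past limma's test, both lower, where 2.31% of all genes passed, 1.08% lower and 1.23% higher. The arrays did not overlap for 4 members, 1 higher and 3 lower, against 18.1% of all genes (10.6% higher, 7.5% lower), and the median change of the 9 was -1.12, against 0.04 over all genes. With replicate 3 standing alone for knockout that median was 0.17, and with the fibroblast covariate 0.11. It was -0.70 without knockout replicate 1 and -0.67 without probe sets ending in _x_at or _s_at. This comparison and that of knockout with control share the knockout arrays.

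Peg3 read 9.96, 9.67 and 9.61 in rescue arrays, below the 11.10 to 11.64 of knockout arrays. Its change was -1.68 ± 0.22 (3.20-fold lower, adjusted p = 0.010), called in 8 of the 9 fits without 1 array and at adjusted p = 0.0501 without rescue replicate 3. Sgce read 6.41, 6.53 and 6.06 in rescue arrays, against 7.10 to 7.69 in knockout arrays, a change of -1.12 ± 0.18 (2.17-fold lower, adjusted p = 0.022). That call was less firm: it held in 4 of the 9 fits that left out 1 array. The adjusted p was 0.056 without control replicate 3, 0.063 without knockout replicate 1, and 0.058, 0.051 and 0.079 without rescue replicates 1, 2 and 3. With the arrays of these groups alone it was 0.13, and with the replicate block 0.060.

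Meg3 and Cdkn1c lay apart from knockout without overlap but missed the threshold. Meg3 read 10.60, 10.54 and 9.96 in rescue arrays, against 11.21 to 12.31 in knockout arrays (-1.52 ± 0.33, adjusted p = 0.059). Cdkn1c read 12.03, 11.62 and 11.50 in rescue arrays, against 10.34 to 11.25 in knockout arrays (0.97 ± 0.23, adjusted p = 0.072). It was called higher with the fibroblast covariate (1.39, adjusted p = 0.012), without knockout replicate 1 (1.22, adjusted p = 0.028) and without knockout replicate 3 (0.76, adjusted p = 0.045). With knockout replicate 3 alone its change was 1.38. Igf2 read 12.84, 12.10 and 11.85 in rescue arrays, which overlapped the 12.06 to 12.65 of knockout arrays (-0.10 ± 0.25, adjusted p = 0.87).

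The genes that split the knockout arrays were even in rescue. Dlk1 read 6.95, 6.45 and 6.57, Mest 7.42, 7.45 and 7.27, and Grb10 9.31, 8.94 and 9.26 in rescue replicates 1, 2 and 3. For all of these the rescue arrays overlapped the knockout arrays, with knockout replicate 3 inside or below the rescue range. Their changes were -2.07 ± 0.75, -1.26 ± 0.67 and -0.67 ± 0.52, with adjusted p between 0.19 and 0.55. Without knockout replicate 3 all 3 were called lower, at -3.14 for Dlk1, -2.19 for Mest and -1.41 for Grb10 (adjusted p at most 0.0018). With replicate 3 standing alone for knockout the change of Grb10 was 0.81. Plagl1 changed by -0.07 ± 0.13 (adjusted p = 0.83).

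Between rescue and control, 0 of the 9 members passed limma's test, where 0.126% of all genes did, 0.055% higher and 0.0715% lower. At an unadjusted p under 0.05 there were 3, namely Peg3, Igf2 and Sgce. The share of all genes at that unadjusted threshold was not counted, so this number has nothing to be set against. Peg3 lay 0.98 ± 0.22 above control (adjusted p = 0.20) and Sgce 0.48 ± 0.18 above it (adjusted p = 0.61), each with every rescue array above every control array. Igf2 lay below control in every rescue array, with a change of -0.69 ± 0.25 (adjusted p = 0.57). The arrays did not overlap for 5 members, 3 higher and 2 lower, against 16.6% of all genes, 6.74% higher and 9.9% lower. The rescue means of Peg3, Sgce, Cdkn1c, Dlk1, Meg3 and Mest lay between those of knockout and control. The rescue means of Igf2, Grb10 and Plagl1 were the lowest of the 3 groups. For Meg3 and Mest the rescue and control means differed by 0.03 ± 0.33 and 0.05 ± 0.67, less than the spread between arrays.

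**Figure D4:**
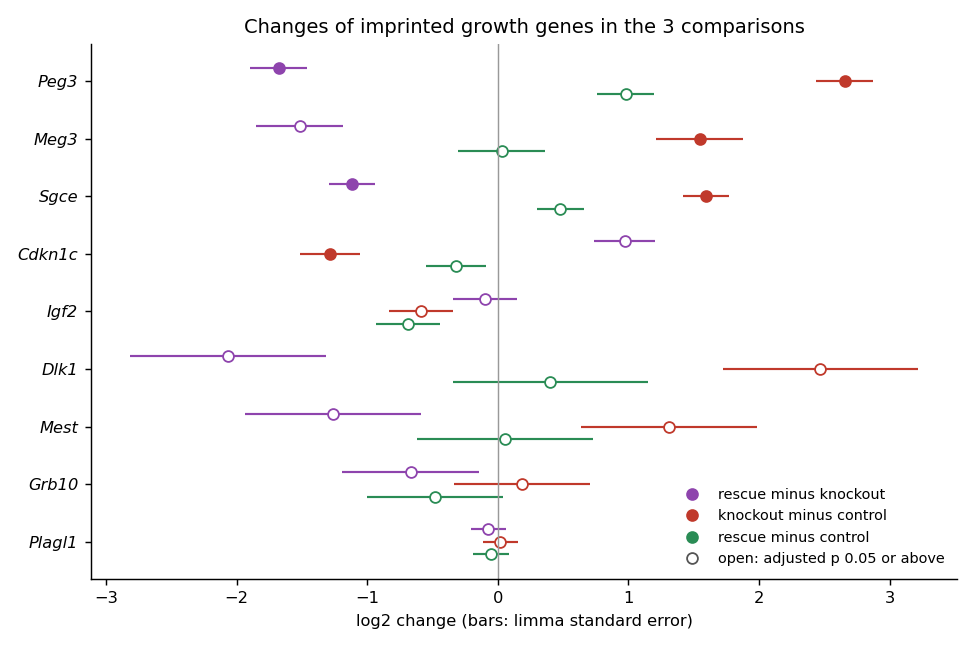
Log2 change of each gene with limma's standard error for rescue minus knockout, knockout minus control and rescue minus control; filled points passed the test over all genes. Peg3 and Sgce are filled on both sides of zero, and no point of rescue minus control is filled.

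Neighbours in the same imprinted clusters did not all follow the members. Imprinted genes within 1 Mb of a member in the RefSeq table were taken for this. In the Dlk1 and Meg3 cluster, the non-coding RNA Rian was 10.08 ± 0.93 in knockout and 8.74 ± 0.13 in control arrays (SD, n = 3 each), without overlap (1.34, adjusted p = 0.085), and Mirg changed by 0.24 (adjusted p = 0.63). Beside Peg3, Usp29 and Zim1 changed by 0.12 and 0.18 (adjusted p = 0.67 and 0.70). Usp29 read 5.59 in knockout and 5.47 in control, and Zim1 was dim, at 4.09 in knockout and 3.90 in control (means). Peg10, which shares an imprinted promoter region with Sgce, changed by -0.03 (adjusted p = 0.88), at a dim level of 3.41 ± 0.03 in knockout and 3.44 ± 0.10 in control arrays. Ppp1r9a and Asb4, farther from Sgce, were higher in every knockout array than in every control array, by 0.72 and 0.34, without passing (adjusted p = 0.095 and 0.12). Over all genes 12.7% were higher without overlap. Asb4 was dim, with means of 4.80 in knockout and 4.46 in control. Calcr, also near Sgce, changed by -0.13 with overlap (adjusted p = 0.43) and was dim too, at 3.44 in knockout and 3.56 in control. At the levels of Zim1, Peg10 and Calcr a flat reading cannot show whether a gene followed its cluster. Near Mest, Copg2 changed by -0.001 with overlap (adjusted p = 0.998) and Klf14 by 0.23 without overlap (adjusted p = 0.28). In the cluster of Cdkn1c, Phlda2, a maternally expressed brake on placental growth, rose by 0.81 while Cdkn1c fell. It read 6.67, 6.92 and 6.90 in knockout arrays against 6.04, 5.94 and 6.06 in control arrays (adjusted p = 0.0028). Cd81 and Osbpl5 of that cluster rose by 0.74 and 0.54 (adjusted p = 0.036 and 0.033), but held in 1 and 3 of the 9 fits without 1 array, while Kcnq1, Slc22a18, Nap1l4, Tssc4, Ascl2, Tnfrsf23 and the antisense RNA Kcnq1ot1 did not pass. With the fibroblast covariate Cd81 was at 0.19 (adjusted p = 0.41) and Osbpl5 at 0.58 (adjusted p = 0.11). Phlda2 held in all 9 and with that covariate (0.89, adjusted p = 0.013). Cobl, beside Grb10, rose by 1.39 (adjusted p = 0.027) and held in 4 of the 9, and was at 1.64 with the covariate (adjusted p = 0.072).

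Among 43 other imprinted genes measured, 6 passed between knockout and control, a share near the 14.1% of all genes called. All 6 were higher, where 5.29% of all genes were called higher and 8.77% lower. Their median change was 0.22. With the fibroblast covariate 6 were called as well, 5 higher and 1 lower, but 1 gene (Phlda2) was shared with the first 6. Sharing was also limited over all genes: of 1966 called with that covariate, 979 were among the first 2559. The fit with replicate 3 standing alone for knockout holds 1 knockout array, so its count of these genes is not given. Of 18 genes listed as expressed from the paternal allele 2 were higher and 0 lower: Inpp5f, an inositol phosphatase (1.67 ± 0.34, adjusted p = 0.016), and Zdbf2 (0.57 ± 0.12, adjusted p = 0.016). They held in 7 and 6 of the 9 fits without 1 array. With the fibroblast covariate neither was called, at 0.74 for Inpp5f (adjusted p = 0.16; 0.97 with knockout replicate 3 alone) and 0.43 for Zdbf2 (adjusted p = 0.13). Of 25 listed as expressed from the maternal allele 4 were higher and 0 lower, the genes Cobl, Phlda2, Cd81 and Osbpl5 given above. Ndn, a paternally expressed gene of the necdin family, was split: it read 10.28, 9.81 and 5.97 in knockout replicates 1, 2 and 3 against 5.31, 5.75 and 5.66 in control arrays (3.11 ± 0.95, adjusted p = 0.064). The count of 6 became 17 without knockout replicate 3, and 1, 3 and 1 without control replicates 1, 2 and 3. It was 4 without knockout replicate 1, 2 or rescue replicate 2. Between rescue and knockout 1 of 43 passed, near the 2.31% of all genes that did. It was Zdbf2 (-0.56 ± 0.12, adjusted p = 0.0497, called in 1 of the 9 fits without 1 array). Between rescue and control 0 passed limma, where 0.126% of all genes did. At an unadjusted p under 0.05 there were 2, a threshold at which the share of all genes was not counted.

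**Figure D5:**
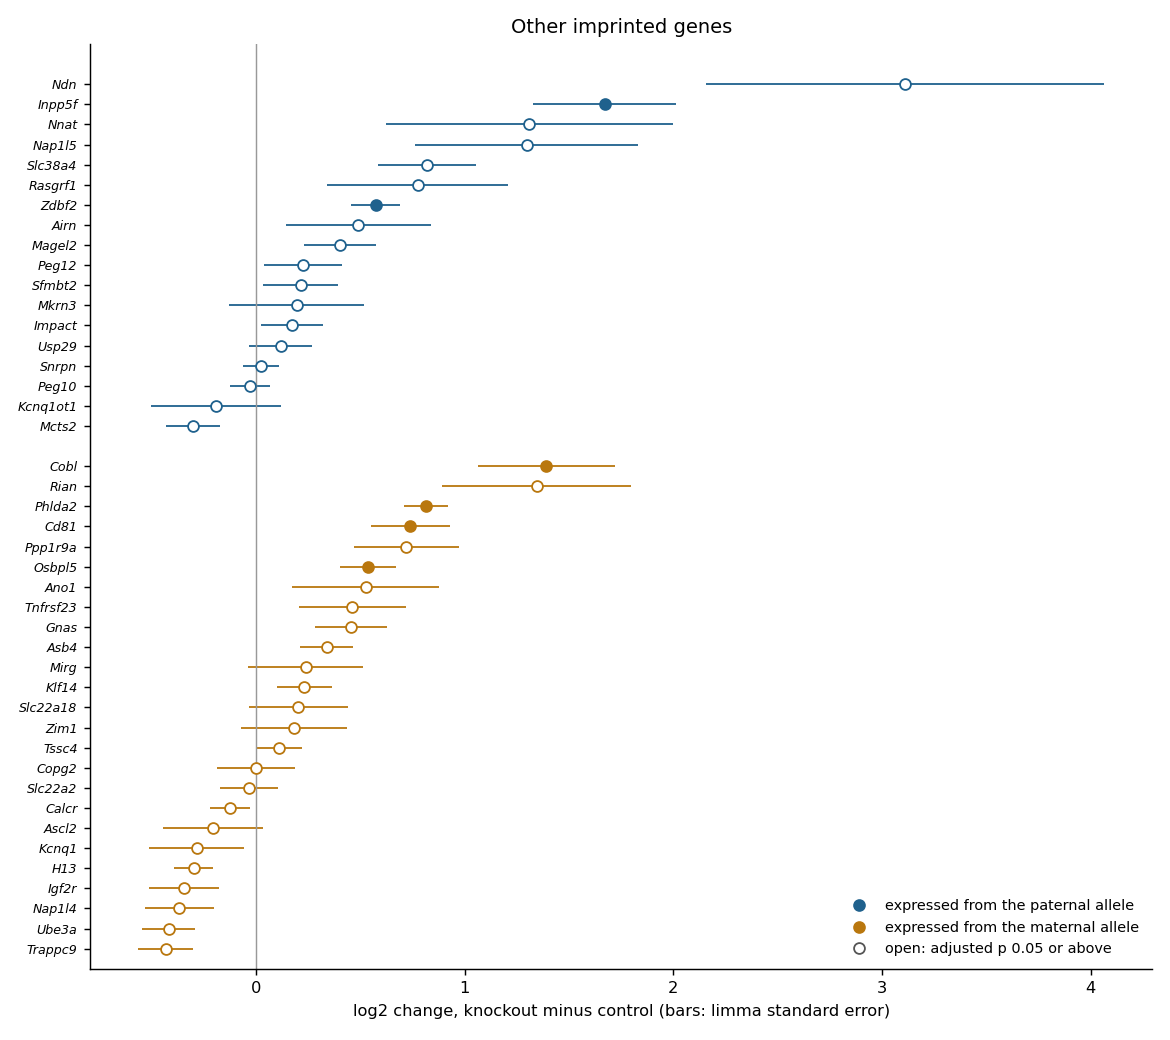
Log2 change between knockout and control with limma's standard error for 43 other imprinted genes, grouped by the parental allele they are listed under; the imprint of some is known only in placenta or brain. The 6 filled points, which passed the test over all genes, all lie above 0. Over all genes 14.1% passed.

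Of 21 measured genes of IGF signalling, 4 were higher and 1 lower in knockout than in control, against 5.29% of all genes higher and 8.77% lower. Igfbp3, which carries IGFs outside the cell, read 9.71, 8.91 and 7.98 in knockout arrays and 5.98, 6.61 and 6.99 in control arrays, a rise of 2.34 ± 0.41 (adjusted p = 0.0087). Pappa and Pappa2, proteases that cleave IGF-binding proteins, rose by 0.72 ± 0.13 and 0.77 ± 0.14 (adjusted p = 0.0098 and 0.011). Irs1, a substrate of the insulin and IGF receptors, rose by 1.79 ± 0.51 (adjusted p = 0.049) but held in 1 of the 9 fits without 1 array. Igfals, a partner of circulating IGF complexes, fell by 0.94 (-0.94 ± 0.22, adjusted p = 0.025) and held in 5. Irs1 and Igfbp3 were highest in knockout replicates 1 and 2, as were the fibroblast markers. With the fibroblast mean as covariate, calls were lost for Igfbp3 (1.19, adjusted p = 0.058), Pappa (0.49, adjusted p = 0.099), Irs1 (0.24, adjusted p = 0.66) and Igfals (-0.50, adjusted p = 0.27). Pappa2 kept its call there (0.92, adjusted p = 0.030). The receptor genes Igf1r (1.04 ± 0.46, adjusted p = 0.16) and Igf2r (-0.35 ± 0.17, adjusted p = 0.21) did not pass. Between rescue and knockout 2 of the 21 passed, both lower, where 2.31% of all genes passed, 1.08% lower. These were Igfbp3 at -2.07 ± 0.41 (adjusted p = 0.043) and Pappa at -0.71 ± 0.13 (adjusted p = 0.035), each in 1 of the 9 fits without 1 array. Between rescue and control 0 of the 21 passed limma, where 0.126% of all genes did. At an unadjusted p under 0.05 there was 1, again without a share of all genes.

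Of 11 regulators of fetal growth genes, 3 fell and 0 rose in knockout, where 8.77% of all genes fell and 5.29% rose. Plagl2, the close relative of Plagl1, read 8.95, 9.32 and 9.52 in knockout arrays and 10.76, 10.66 and 10.58 in control arrays (-1.40 ± 0.17, adjusted p = 0.0021). Igf2bp3, an RNA-binding protein that binds Igf2 messenger RNA, fell by 0.72 (adjusted p = 0.019), though in 6 of 9 fits lacking 1 array and not with the fibroblast covariate (-0.63, adjusted p = 0.13). The DNA-binding factor Arid3a fell by 0.92 (adjusted p = 0.0052). Plagl2 and Arid3a exceeded knockout in rescue by 1.01 and 0.77 (adjusted p = 0.026 and 0.035), in 2 and 1 of the 9 fits without 1 array. Of 18 genes that write or keep imprints, 1 fell in knockout, the DNA methyltransferase gene Dnmt3b. It read 7.53, 7.46 and 7.69 in rescue, 7.16, 7.40 and 6.87 in knockout and 8.60, 8.69 and 8.56 in control arrays. Its change was -1.48 ± 0.14 between knockout and control (adjusted p = 8.8e-04) and -1.06 ± 0.14 between rescue and control (adjusted p = 0.044, in 2 of the 9 fits lacking 1 array). Beyond Dnmt3b, the nearest to the threshold in knockout were Suz12, Kdm1b and Zfp445, which did not pass (adjusted p = 0.115, 0.182 and 0.210).

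The genes whose levels ran most like those of the members over the 9 arrays differed from member to member. Likeness was the Pearson r of log2 values over all 18193 genes, a description over arrays that share groups. Peg3 ran closest to Phlda2 (r = 0.990), S100a6 and Fbxw9, and Sgce to Clic1 (r = 0.991), Tnfrsf21 and Pdk4. Cdkn1c ran closest to Vkorc1 (r = 0.987), Nrn1 and Trappc6a. Dlk1 followed Bicc1 (r = 0.997), Islr and Timp2, and Mest followed Msn (r = 0.988), Igfbp4 and Pth1r. The closest to Igf2 was Pla2g7 (r = 0.921), to Meg3 Fam124a (r = 0.984), to Grb10 Dixdc1 (r = 0.982) and to Plagl1 Gm17455 (r = 0.903).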

How the data were processed

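The authors deposited log2 values, 1 for every probe set on every array; RMA and Partek 6.5 are named per the submitters' processing notes, and how they were used is not given. Per the labels' protocols, gut pieces were kept 30 min in 2 mM EDTA and shaken, and released cells passed a 70 µm mesh. No scaling or filter was added. The platform annotation gives 1 symbol for 34958 of the 45101 probe sets, several for 932 and none for 9211, and the brightest single-symbol probe set stood for each of 18193 genes.

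Group means of rescue, knockout and control were estimated jointly over 9 arrays with limma 3.58.1 (lmFit, eBayes; R 4.3.3). Tests were two-sided, Benjamini-Hochberg adjusted over all genes of a comparison, with a threshold of 0.05. Changes are log2 differences with limma's SE. Precision is limited by the number of arrays (median SE 0.147). Array medians lay between 5.93 and 6.00, and 0 pairs of arrays were identical.

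The members and gene lists were chosen with earlier results of these data known. From each list the text names genes among the 4 with the smallest p between knockout and control, those that passed in a comparison, and the genes most alike to each member. Usp29, Zim1, Peg10, Ppp1r9a, Asb4, Calcr, Copg2, Klf14, Mirg, Rian and the unchanged neighbours of Cdkn1c are named for their position, and Igf1r and Igf2r for their role, outside that rule. Of 229 list symbols 205 were measured. Deviations of same-numbered arrays from their group means correlated by -0.22 to 0.40 across groups, with 2 of 9 over 0.1, so the numbers were not taken to pair arrays. Alternatives covered probe-set choice, normalization, filters, the fit, the replicate block, the fibroblast mean as covariate and leaving out arrays. The fibroblast covariate and the fit with knockout replicate 3 alone rest mostly on the same split of the knockout arrays.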

Additional observations from a re-analysis of the deposited data

How the results depend on the processing

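Over 486 values of the members (9 genes, 3 comparisons, 18 alternatives), 418 kept direction and side of the threshold, 14 lost a call, 15 gained one, 4 turned direction with a call and 35 turned sign without a call in either. Peg3, Sgce and Cdkn1c kept their call between knockout and control in all 18. The alternatives include the fit with replicate 3 alone for knockout, whose calls rest on no spread between knockout arrays. Those calls are part of the tallies above and of the 18, and nothing is concluded from them. Direction turned for Grb10 between knockout and control, at -1.49 under the fibroblast covariate and -1.29 when replicate 3 stood alone for knockout, for Mest at -0.86 with the fibroblast covariate, and for Grb10 between rescue and knockout at 0.81 with knockout replicate 3 alone; the cause was not tested.

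Between knockout and control, the arrays of these groups alone gave 1655 genes called, against 2559. Leaving out 1 array gave 3 to 7 members, 1 to 17 other imprinted genes and 936 to 4998 genes. The members numbered 3 if control replicate 2, control replicate 3, knockout replicate 1 or knockout replicate 2 was left out, and 7 without knockout replicate 3. All genes numbered 936 without control replicate 3 and 4998 without knockout replicate 3.

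Between rescue and knockout, 1 member was called with these groups' arrays alone, against 2. Leaving out 1 array gave 0 to 7, with 0 without rescue replicate 3, 1 without control replicate 3 or rescue replicate 1 or 2, and 7 without knockout replicate 3. Other imprinted genes called, 1 at first, were 2 with the mean of probe sets, 4 under the fibroblast covariate and 0 to 7 without 1 array. They were 0 without _x_at and _s_at probe sets, with quantile normalization, with an intensity trend and robust prior, with these groups alone and with the replicate block. In the list that follows, the count with replicate 3 alone for knockout rests on no spread between knockout arrays. It is listed as a setting and not read as a result. All genes called, 420 at first, were 30 with these groups alone, 257 with the replicate block, 916 under the fibroblast covariate, 1096 with replicate 3 alone for knockout and 105 to 2793 without 1 array.

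Between rescue and control, 1 member (Grb10, -0.93, limma adjusted p = 0.019) was called with the fibroblast covariate, and 0 members and 0 other imprinted genes without any 1 array. All genes called, 23 at first, were 15 with quantile normalization, 14 with the trend, 149 with these groups alone, 12 with the replicate block, 112 under the fibroblast covariate and 2 to 136 without 1 array. The replicate block left 4 members called between knockout and control. Of 1332 values of the other named genes, 147 lost a call, 25 gained one and 0 turned direction with a call. Sgce, Peg10, Zim1, Calcr and Asb4 are dim, and how far their signal exceeds background was not measured.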
